A study of Mus musculus with 18 samples.

Results

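The genes described here are c-Myc, its partner Max, the related factor Mycn, and 35 genes that act in the making of ribosomes in the nucleolus. They were taken from a fixed list of 38 genes, of which 37 had a probe set of their own on the array, among 18820 genes with such a probe set. Tsr1 is read only by a probe set shared by several genes and was not analysed here. The list was split by role into the Myc network (3 genes), RNA polymerase I (2), box C/D small nucleolar ribonucleoproteins (4), box H/ACA small nucleolar ribonucleoproteins (4), nucleolar proteins (6), small subunit assembly (8 measured) and large subunit assembly (10).

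All 18 arrays were made from 1 clone, C2, of iMEFs, which are immortalized mouse embryonic fibroblasts. The fibroblasts carried 1 deleted and 1 floxed copy of Ezh2 and CreERT2 at the ROSA26 locus, and were transformed with a retrovirus (pMXs-hc-MYC) that expresses c-MYC, so that every group, controls included, carried this oncogene. Ezh2 and Ezh1 are the alternative catalytic subunits of Polycomb repressive complex 2, which methylates histone H3 on lysine 27, and tamoxifen activated the recombinase to delete Ezh2. In the time course, cells given the vehicle (EtOH) were compared with cells at day 5, day 18 and day 32 of tamoxifen. In the rescue experiment, Ezh2 WT control cells were compared with Ezh2 -/- cells and with 3 rescue lines, in which retroviral Flag-Ezh1 or Flag-Ezh2 was expressed before the deletion (Ezh1 and Ezh2 predeletion rescue) or Flag-Ezh2 was added after it (Ezh2 post-deletion rescue). Each of the 9 groups had 2 arrays. The study calls the 2 arrays biological replicates, all of the same clone, and no source used here says how the cultures were kept apart, so p-values cover the spread between 2 such arrays of 1 clone. In these bulk samples, fewer cells of a type and less RNA per cell cannot be told apart.

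Myc binds DNA as a dimer with Max at E-boxes, short palindromic sequences, and drives genes of cell growth. Making ribosomes is among its best known programs. RNA polymerase I transcribes the ribosomal RNA precursor, the box C/D particles methylate it, the box H/ACA particles convert uridines in it to pseudouridines, and large sets of assembly factors fold and cut it into the small and the large subunit. Ribosomal proteins, in contrast, are components of the finished particle.

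The values were log2 intensities. Time course arrays had medians of 4.98 to 5.08 and rescue arrays medians of 6.16 to 6.27, with standard deviations of 2.64 to 2.70 and of 2.29 to 2.38, so levels were compared only within an experiment. The 2 arrays of a group correlated at 0.9944 to 0.9985 over all genes. Of 14 fibroblast markers, 13 lay above the array median in both experiments, led by Vim with a mean of 12.56 and 13.04, while Thy1 lay below it. Of 12 markers of other cell types, 0 lay above the median in the time course and 2 in the rescue experiment. The Ezh2 probe set kept a high level after deletion, slightly below vehicle at day 5 and above it later. Its values were 9.37 and 9.43 with vehicle, 9.29 and 9.19 at day 5, 9.80 and 9.63 at day 18, then 9.73 and 9.81 at day 32. It read 10.36 and 10.56 in the control arrays and 10.46 and 10.48 in the Ezh2-null arrays, so this probe set checks nothing about the deletion, which removes only part of the gene. The added copies were seen, with Ezh2 at 12.26 and 11.84 in the Ezh2 predeletion rescue and at 12.55 and 12.12 in the post-deletion rescue. The Ezh2 probe set of the Ezh1 predeletion rescue read 10.15 and 10.30, where Ezh1 was at 11.68 and 11.85 against 9.50 and 9.82 in the control.

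The start sites of 4 ribosome biogenesis genes and of Max are shown as examples. Mybbp1a, Utp20 and Nop2 had large changes and an E-box, and Rrp9 had the largest change and none. Max had an E-box at the start used for its window and was not called. Ltv1, Pes1 and Wdr43, which also had an E-box, changed less at day 32 (0.47, 0.46 and 0.38) and are not shown. Each line gives 250 bases before and 50 bases after the annotated start in GRCm38.p6 (RefSeq), 5′ to 3′ on the strand of the gene, with the E-box CACGTG in capitals. The windows are chr11:72441077-72441376 on the plus strand for Mybbp1a, chr10:88826765-88827064 on the minus strand for Utp20, chr6:125131633-125131932 on the plus strand for Nop2, chr9:106477059-106477358 on the plus strand for Rrp9 and chr12:76962199-76962498 on the minus strand for Max.
Mybbp1a: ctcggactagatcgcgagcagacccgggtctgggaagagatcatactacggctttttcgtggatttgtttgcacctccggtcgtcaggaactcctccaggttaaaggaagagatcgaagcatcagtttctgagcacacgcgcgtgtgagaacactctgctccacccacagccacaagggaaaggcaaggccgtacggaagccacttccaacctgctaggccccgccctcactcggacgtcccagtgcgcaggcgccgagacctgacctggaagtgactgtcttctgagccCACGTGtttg
Utp20: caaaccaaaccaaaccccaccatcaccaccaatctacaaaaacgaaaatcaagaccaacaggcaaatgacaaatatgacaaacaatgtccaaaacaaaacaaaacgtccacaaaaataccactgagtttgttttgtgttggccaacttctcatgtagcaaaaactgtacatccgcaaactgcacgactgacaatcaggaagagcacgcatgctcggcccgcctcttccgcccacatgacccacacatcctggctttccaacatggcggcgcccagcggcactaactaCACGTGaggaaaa
Nop2: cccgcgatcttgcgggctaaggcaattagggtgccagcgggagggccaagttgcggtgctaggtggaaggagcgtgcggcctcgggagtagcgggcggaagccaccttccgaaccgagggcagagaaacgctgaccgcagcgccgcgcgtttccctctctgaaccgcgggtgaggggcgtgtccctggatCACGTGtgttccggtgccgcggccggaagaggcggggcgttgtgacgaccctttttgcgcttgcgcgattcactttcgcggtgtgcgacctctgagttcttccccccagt
Rrp9: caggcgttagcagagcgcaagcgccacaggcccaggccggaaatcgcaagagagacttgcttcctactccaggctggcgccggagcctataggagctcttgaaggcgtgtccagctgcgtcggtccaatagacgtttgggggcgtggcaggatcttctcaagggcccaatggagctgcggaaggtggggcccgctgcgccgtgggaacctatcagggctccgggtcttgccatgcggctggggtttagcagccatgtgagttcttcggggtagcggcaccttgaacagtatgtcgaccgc
Max: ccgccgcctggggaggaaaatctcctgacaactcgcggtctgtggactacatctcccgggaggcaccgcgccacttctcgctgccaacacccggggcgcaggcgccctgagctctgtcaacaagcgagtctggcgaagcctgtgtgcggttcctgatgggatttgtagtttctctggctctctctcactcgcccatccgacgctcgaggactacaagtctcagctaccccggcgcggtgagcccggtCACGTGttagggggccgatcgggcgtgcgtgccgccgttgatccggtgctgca

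The E-box of Mybbp1a starts 40 bases after the first transcribed base, that of Utp20 37 bases after it and that of Nop2 60 bases before it. That of Max starts 3 bases before the start used for its window. This start lies inside the annotated span of Max (chr12:76937269-76962323, minus strand), so the E-box lies downstream of the annotated 5′ end of the gene. Promoter windows were found for 31 of the 37 members, without Myc, Fbl, Npm1, Rrp12, Rrs1 and Bop1. CACGTG, which reads the same on both strands, was present in 7 of these 31 (22.6%), namely Ltv1, Max, Mybbp1a, Nop2, Pes1, Utp20 and Wdr43. Over all 14749 measured genes with a window, 9.57% had it in at least 1 window, and 7.15% of all 32851 windows held it. The variant CACGCG, read as CGCGTG on the other strand, was in 9 of the 31 (29.0%) and in 15.1% of the measured genes with a window. A match in this window is a sequence only, and binding was not measured. Among the members outside the Myc network, the 6 with CACGTG had a median log2 change of 0.60 at day 32 (range 0.38 to 0.91) and the 23 without it a median of 0.52 (0.14 to 1.00), so the ranges overlapped.

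The first question was how these genes behaved after Ezh2 was lost from cells that keep an oncogenic c-MYC. More ribosome biogenesis genes were higher at each later time, and 33 of the 34 measured were higher at day 32, whereas Myc was higher at day 5 alone. At day 32, 33 of 37 members were higher than in the vehicle arrays and 0 were lower (limma, adjusted p under 0.05 over all 18820 genes), where 18.4% of all genes were higher and 14.2% lower. The median log2 change of the members was 0.49, with a range of -0.04 to 1.00, against -0.018 over all genes. The 4 that were not called were Myc, Mycn, Max and Rcl1. At day 18, 22 of 37 members were higher and 0 lower, with a median of 0.30, where 15.2% of all genes were higher and 10.5% lower and the median of all genes was -0.023. At day 5, 6 of 37 were higher and 0 lower, with a median of 0.16, where 11.0% of all genes were higher and 5.72% lower and the median of all genes was -0.0053. The day 18 count was 14 without vehicle replicate 1 or either day 18 array, and the day 5 count was 3 without vehicle replicate 1 or day 5 replicate 2. The 3 comparisons share the 2 vehicle arrays. As no vehicle arrays are labelled by day, time in culture and loss of Ezh2 cannot be told apart in the time course. With each array centred on its own median, the median of all genes moved to -0.154, -0.18 and -0.137 at days 5, 18 and 32. The member medians on that scale were 0.01, 0.14 and 0.37, with 3, 11 and 28 members higher and 5, 1 and 0 lower. Under this scaling 6.47%, 9.63% and 13.4% of all genes were higher and 21.9%, 32.7% and 26.6% lower.

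**Figure D1:**
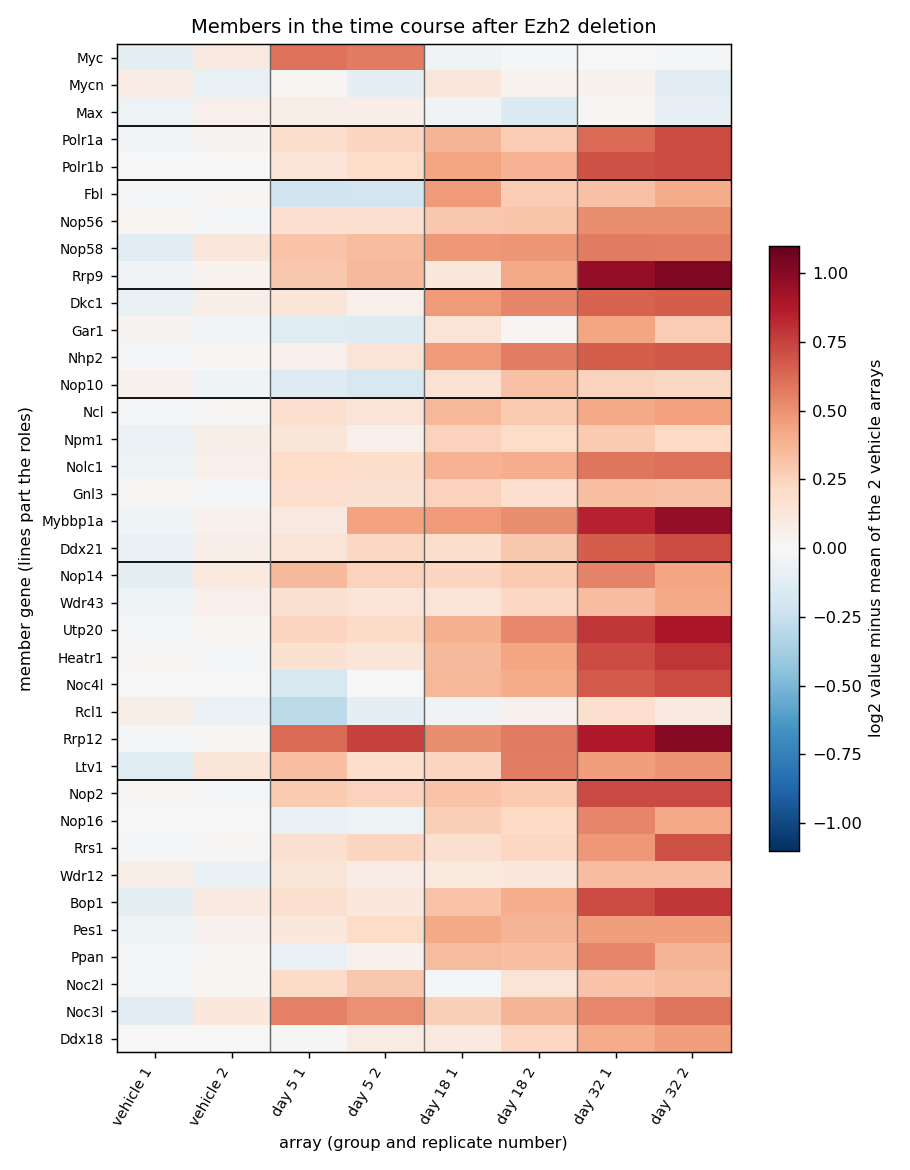
Log2 value of each of the 37 members in each of the 8 time course arrays, minus the mean of the 2 vehicle arrays (colour scale), with genes in rows grouped by role and arrays in columns. Myc is high only in the day 5 columns, while most rows below Max are darkest at day 32, up to 1.00 for Rrp9, and the rows of Mycn and Max stay pale.

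Myc (chr15:61985341-61990361, GRCm38.p6) is the oncogenic transcription factor that gives the list its name. Its probe set read 10.89 and 11.09 with vehicle, 11.59 and 11.56 at day 5, 10.95 and 10.97 at day 18, then 10.99 and 10.98 at day 32. Both day 5 arrays lay above all other arrays of the time course, and the day 18 and day 32 arrays lay between the 2 vehicle arrays. The rise at day 5 was 0.58 ± 0.083 on the log2 scale (SE, 1.5-fold, limma, adjusted p = 0.00147), and from day 5 to day 18 Myc fell by 0.61 (adjusted p = 0.000392). At day 32 its change was 0.00, with a 95% confidence interval of -0.19 to 0.18. Whether this probe set also reads the transgene was not tested.

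Max, the obligate partner of Myc, read 9.20 and 9.32 with vehicle, 9.33 and 9.33 at day 5, 9.22 and 9.11 at day 18, then 9.27 and 9.17 at day 32. Both day 5 arrays lay above all others by a narrow margin, and the other groups overlapped. It was not called in any of the 11 comparisons, and its change at day 32 was -0.04 (interval -0.22 to 0.14). Mycn, a neural relative of Myc, read between 3.31 and 3.55 in the 8 arrays, below the array medians and at the 22.0 percentile of all genes, while the mean of Myc lay at the 98.5 percentile. Mycn was not called in any comparison either. The sign of the day 32 change of both genes was not stable between settings.

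**Figure D2:**
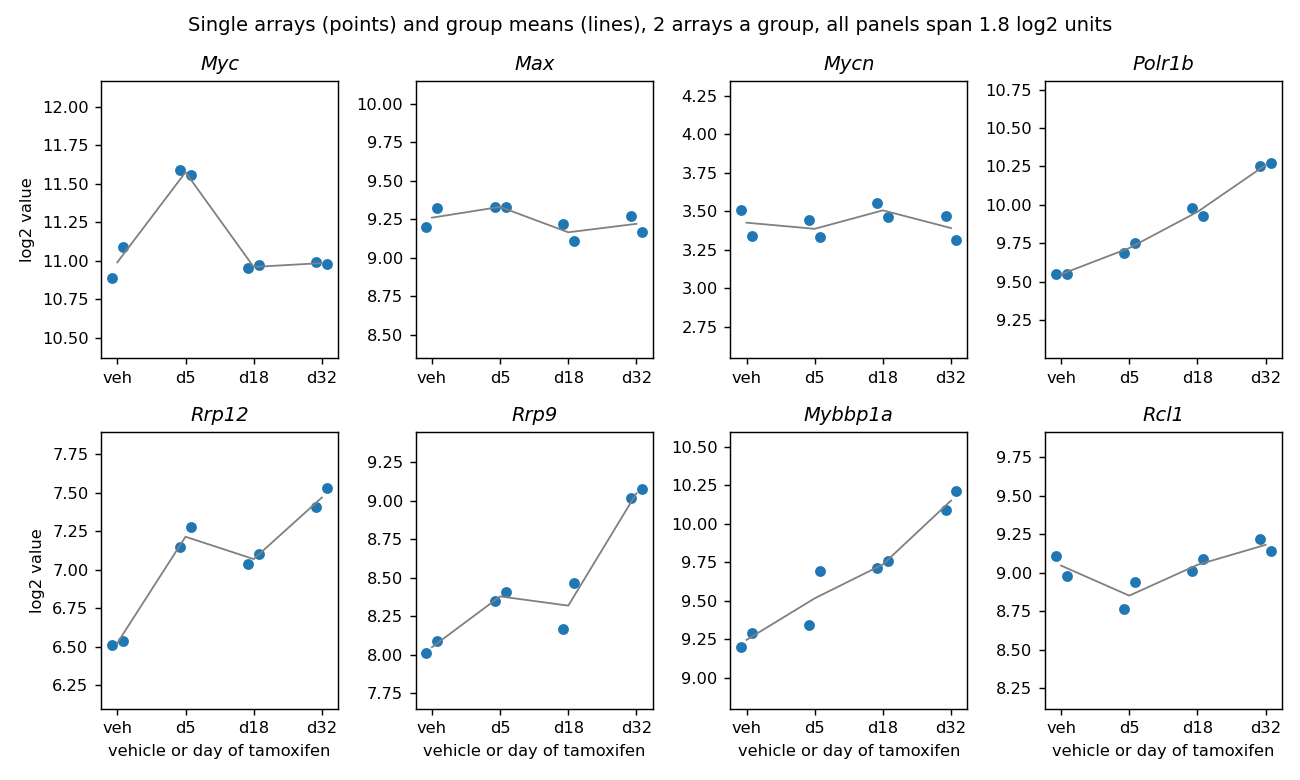
Log2 values (vertical axis) of 8 members in the single time course arrays, with vehicle (veh) and days 5, 18 and 32 on the horizontal axis; points are arrays, 2 in each group, lines join group means, and every panel spans the same log2 range. Myc is at 11.59 and 11.56 at day 5 and near 11 elsewhere, whereas Polr1b climbs from 9.55 to 10.25 and 10.27.

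RNA polymerase I makes the ribosomal RNA precursor, and its 2 largest subunits rose at day 18 and day 32. Polr1b, the second largest subunit, read 9.55 and 9.55 with vehicle, 9.69 and 9.75 at day 5, 9.98 and 9.93 at day 18, then 10.25 and 10.27 at day 32. No 2 groups overlapped, and each later group lay above the earlier one. The change was 0.40 ± 0.070 at day 18 (adjusted p = 0.00247) and 0.71 ± 0.070 at day 32 (1.63-fold, adjusted p = 5.14e-05, limma). Polr1a, the largest subunit, read 8.63 and 8.69 with vehicle, 8.85 and 8.90 at day 5, 9.03 and 8.94 at day 18, then 9.28 and 9.38 at day 32. Its groups did not overlap either, and it was 0.67 ± 0.076 higher at day 32 (adjusted p = 0.00012, limma). Both subunits rose again between day 18 and day 32, by 0.31 and 0.34.

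The box C/D particles carry fibrillarin, the methyltransferase that modifies ribosomal RNA. All 4 of their measured members were higher at day 32, where 18.4% of all genes were higher. Rrp9, the U3 particle protein, read 8.01 and 8.09 with vehicle, 8.35 and 8.41 at day 5, 8.17 and 8.47 at day 18, then 9.02 and 9.08 at day 32. The day 32 arrays stood apart from all the others, while days 5 and 18 overlapped. Rrp9 had the largest change among the members, 1.00 ± 0.099 at day 32 (2.00-fold, adjusted p = 5.54e-05, limma), and most of it lay between day 18 and day 32 (0.73 ± 0.099, adjusted p = 0.00529). Fbl, which encodes fibrillarin, read 10.33 and 10.35 with vehicle, 10.12 and 10.14 at day 5, 10.81 and 10.62 at day 18, then 10.66 and 10.75 at day 32. It lay below both vehicle arrays at day 5 (-0.21, adjusted p = 0.123) and above them later, by 0.38 at day 18 and 0.37 at day 32, and it had the largest rise of the members between day 5 and day 18 (0.59 ± 0.083, adjusted p = 0.000482). Nop56 and Nop58, the scaffold proteins of the particle, rose by 0.52 and 0.57 at day 32.

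The box H/ACA particles guide pseudouridine formation, with dyskerin (Dkc1) as the enzyme and Nhp2, Nop10 and Gar1 as its partners. All 4 were higher at day 32, where 18.4% of all genes were higher. At day 5, 0 of the 4 were called, where 11.0% of all genes were higher and 5.72% lower. Nhp2 read 8.52 and 8.56 with vehicle, 8.60 and 8.69 at day 5, 9.01 and 9.10 at day 18, then 9.21 and 9.22 at day 32. Its groups did not overlap, and its change at day 32 was 0.68 ± 0.074 (adjusted p = 9.25e-05, limma). Nop10 read 10.25 and 10.15 with vehicle, 10.06 and 10.02 at day 5, 10.36 and 10.52 at day 18, then 10.45 and 10.43 at day 32. Its change at day 32, 0.24 ± 0.080 (adjusted p = 0.0447), was the smallest among the called members, and day 18 and day 32 overlapped. It was not called at day 32 when any 1 of 6 arrays was left out, namely either vehicle, either day 5 or either day 32 array (adjusted p = 0.0556 to 0.165). Dkc1 and Gar1 were higher at day 32 by 0.65 and 0.36. Between day 5 and day 18 Dkc1, Nhp2 and Nop10 rose by 0.40, 0.41 and 0.40.

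All 6 nucleolar proteins, which move, chaperone or remodel the precursor particles, were higher at day 32, where 18.4% of all genes were higher. Their changes lay between 0.25 and 0.91. Mybbp1a, a nucleolar protein that binds Myb and RNA polymerase I, read 9.20 and 9.29 with vehicle, 9.34 and 9.69 at day 5, 9.71 and 9.76 at day 18, then 10.09 and 10.21 at day 32. The groups followed each other without overlap, although the 2 day 5 arrays were far apart, and the change at day 32 was 0.91 ± 0.112 (1.87-fold, adjusted p = 0.000207, limma). Npm1, the abundant nucleolar chaperone nucleophosmin, read 11.50 and 11.63 with vehicle, 11.70 and 11.62 at day 5, 11.82 and 11.77 at day 18, then 11.85 and 11.78 at day 32. It had the smallest change of this role, 0.25 ± 0.079 (adjusted p = 0.0376). That call was lost when vehicle replicate 1, either day 18 array or either day 32 array was left out (adjusted p = 0.055 to 0.188). Ddx21, an RNA helicase, rose by 0.69, Nolc1, a chaperone of small nucleolar particles, by 0.60, Ncl, nucleolin, by 0.44, and Gnl3, nucleostemin, by 0.34.

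For Npm1, Wdr12 and Ddx18 the brightest probe set, which was used, lies by its number among probe sets of another chromosome than the gene, so it may read another copy. The probe sets that lie among genes of their own chromosome gave 0.34 for Npm1 (adjusted p = 0.0275), 0.65 for Wdr12 (adjusted p = 0.00053) and 0.52 for Ddx18 (adjusted p = 0.00461) at day 32, against 0.25, 0.34 and 0.43 for the brightest ones (limma). With them Wdr12 was also higher at day 5 (0.47, adjusted p = 0.00849) and day 18 (0.46, adjusted p = 0.00591), and Npm1 at day 18 (0.36, adjusted p = 0.0289) and from day 5 to day 18 (0.35, adjusted p = 0.027). The counts of members higher were then 7, 24 and 33 at days 5, 18 and 32.

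Small subunit assembly held Rrp12, the member with the largest change at day 5. Of its 8 measured members, 2 were higher at day 5, 5 at day 18 and 7 at day 32. Over all genes 11.0%, 15.2% and 18.4% were higher at these times. Rrp12, an export and maturation factor, read 6.51 and 6.54 with vehicle, 7.15 and 7.28 at day 5, 7.04 and 7.10 at day 18, then 7.41 and 7.53 at day 32. All 6 tamoxifen arrays lay above both vehicle arrays, with a change of 0.69 ± 0.080 already at day 5 (1.61-fold, adjusted p = 0.000492) and 0.95 ± 0.080 at day 32 (1.93-fold, adjusted p = 1.96e-05, limma). Nop14, a component of the same pre-ribosome, was the other member of this role called at day 5 (0.31). Utp20 and Heatr1, large scaffold proteins of the small subunit processome, were higher by 0.85 and 0.75 at day 32, and Noc4l, Nop14, Ltv1 and Wdr43 by 0.70, 0.49, 0.47 and 0.38. Rcl1, which takes part in cutting the precursor, was the exception outside the Myc network. It read 9.11 and 8.98 with vehicle, 8.76 and 8.94 at day 5, 9.01 and 9.09 at day 18, then 9.22 and 9.14 at day 32, and its change of 0.14 at day 32 did not pass the test (interval -0.06 to 0.34, adjusted p = 0.289).

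All 10 large subunit assembly members were higher at day 32, where 18.4% of all genes were higher. Their changes lay between 0.33 and 0.75. Bop1, which forms a complex with Pes1 and Wdr12, read 8.45 and 8.65 with vehicle, 8.73 and 8.67 at day 5, 8.86 and 8.95 at day 18, then 9.27 and 9.34 at day 32. Its groups did not overlap, and its change at day 32 was 0.75 ± 0.086 (adjusted p = 0.000132, limma). Noc2l had the smallest change, 0.33 ± 0.081 (adjusted p = 0.0112), with values of 8.41 and 8.45 with vehicle, 8.64 and 8.73 at day 5, 8.42 and 8.58 at day 18, then 8.74 and 8.78 at day 32. It was high at day 5, back among the vehicle values in 1 day 18 array, and high again at day 32. Nop2, a ribosomal RNA methyltransferase, and Noc3l were called at day 5 (0.27 and 0.53). At day 32 Nop2, Rrs1, Noc3l, Nop16, Pes1 and Ppan were higher by 0.72, 0.59, 0.56, 0.48, 0.46 and 0.46.

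From day 5 to day 18, 11 of 37 members rose and 1, Myc, fell, where 15.6% of all genes rose and 16.1% fell. From day 18 to day 32, 10 rose and 0 fell, where 1.40% rose and 2.75% fell, and the median change of the members was 0.23 against 0.0059 for all genes. These 10 were Polr1a, Polr1b, Rrp9, Ddx21, Utp20, Heatr1, Rrp12, Nop2, Rrs1 and Bop1. Both counts depended on single arrays. The first was 5 without day 5 replicate 1 or day 18 replicate 1, and 7 without day 18 replicate 2. The second lay at 6 without either day 5 array, at 1 without either day 18 array, at 2 without day 32 replicate 1 and at 0 without day 32 replicate 2.

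Of the further RNA polymerase I, assembly factor and Myc target genes examined, none was called lower at day 32. Over all genes 18.4% were higher and 14.2% lower at that time. Of 12 further RNA polymerase I subunits and factors, 7 were higher and 0 lower, among them Cd3eap (0.48), Polr1c (0.42) and the initiation factor Rrn3 (0.31). Of 28 further small subunit assembly factors, 21 were higher and 0 lower, with Bysl at 0.97, Pno1 at 0.88 and Nol10 at 0.67. Of 31 further large subunit factors, 20 were higher and 0 lower, with Urb1 at 1.20, Mrto4 at 0.71 and Ftsj3 at 0.59. Of 21 known Myc targets outside the ribosome, 15 were higher and 0 lower, among them the cyclin Ccnd2 (1.22), the transferrin receptor Tfrc (1.04) and Cad (1.06), the enzyme that starts pyrimidine synthesis. At day 5, 2 of these 21 targets were higher and 3 lower, with a median of -0.10, where 11.0% of all genes were higher and 5.72% lower. The 74 genes of ribosomal proteins differed at day 32, with 4 higher, 1 lower and a median of 0.03. The 3 with the smallest p were Rpl30 (0.39), Rpl34 (0.44) and Rps27l (0.45). The further RNA polymerase I genes and the ribosomal proteins changed with scaling. With median centring 2 of the 12 were higher, and 10 of the 74 were lower, where 13.4% of all genes were higher and 26.6% lower.

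Among 10 other genes of the extended network around Myc, Max and Mlx, 1 of 10 was higher and 5 were lower at day 32. The median of the 10 was -0.20. Over all genes 18.4% were higher and 14.2% lower. Mxd4, a repressor that pairs with Max, fell by 1.69 ± 0.070 on the log2 scale (adjusted p = 3.27e-07, limma). Mxi1 fell by 0.55 and Mnt, both repressors of the same kind, fell by 0.51. Mxd4 also fell by 0.31 at day 5 and by 1.07 at day 18. The 1 that was higher at day 32 was Mxd3, a relative of Mxd4 that also pairs with Max, by 0.89. Mxd3 read 5.73 and 6.35 with vehicle, 5.29 and 5.35 at day 5, 6.80 and 7.10 at day 18, then 7.09 and 6.77 at day 32.

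Markers of cell division moved with the members at day 18 and day 32 but not at day 5. Of 21 proliferation genes, 0 were higher and 10 lower at day 5, all 21 were higher at day 18 and all 21 at day 32, led by Mcm2 (1.38), Mcm3 (1.20) and Birc5 (1.1). The mean level of the list was 9.30 and 9.35 in the vehicle arrays, 9.02 and 9.04 at day 5, 10.10 in both day 18 arrays, then 10.22 and 10.25 at day 32. The mean level of the fibroblast markers was 9.51 and 9.52 with vehicle, 9.61 and 9.64 at day 5, 9.48 at day 18, then 9.31 and 9.36 at day 32. Of the 14, 1 was higher and 6 lower at day 32, where 18.4% of all genes were higher and 14.2% lower. Among the 6 were Fn1 (-0.46), S100a4 (-0.60) and Pdgfrb (-0.44). The mean level of the markers of other cell types lay between 3.66 and 3.79 in all groups of the time course. Of these 12, Pecam1 (0.37) and Des (0.56) were higher and Pou5f1 (-0.34) was lower at day 32. At day 5 the proliferation genes had a median of -0.28 and the members one of 0.16, or 0.01 with median centring. The part of these shifts in the rise of the members was not tested.

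**Figure D3:**
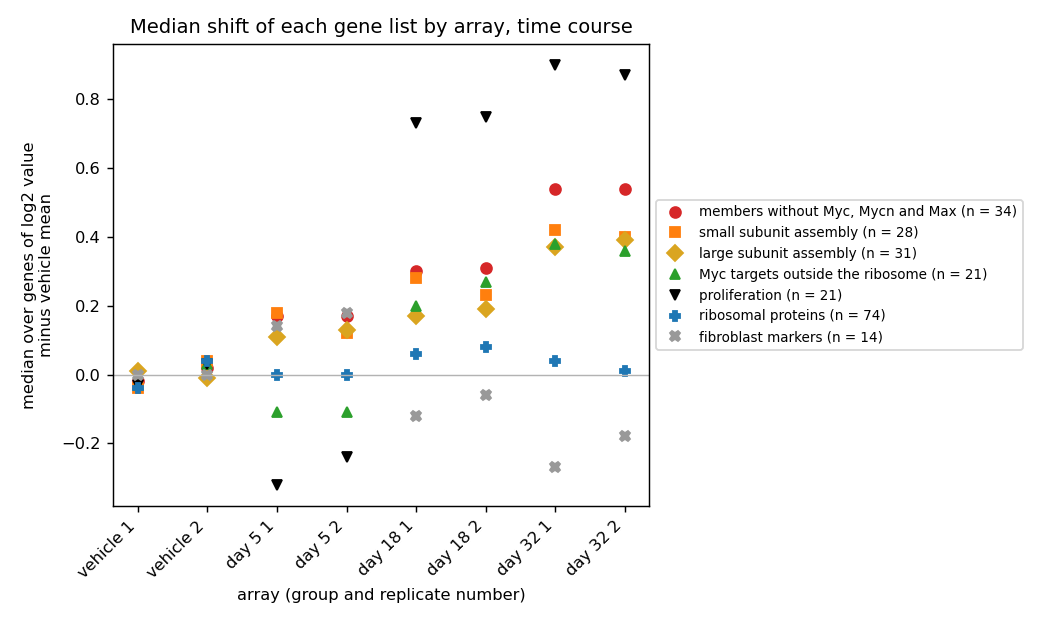
Median over the genes of each list of the log2 value minus the vehicle mean (vertical axis), for each of the 8 time course arrays (horizontal axis); each symbol is 1 list in 1 array. The members without Myc, Mycn and Max stand at 0.17 in both day 5 arrays and 0.54 in both day 32 arrays, the proliferation genes at -0.32 and -0.24 and then 0.90 and 0.87, and the ribosomal proteins stay between -0.04 and 0.08.

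The second question was whether the same genes differed when the deleted cells were measured beside rescue lines. None of the members was called between Ezh2-null and control arrays (0 higher and 0 lower of 37, limma), where 1.20% of all genes were higher and 0.755% lower. Of the 37, 6 had an unadjusted p under 0.05. The members leaned upward, with a median of 0.15 against -0.03 for all genes and 34 of 37 above 0, where 41.5% of all genes lay above 0. Both Ezh2-null arrays lay above both control arrays for 11 of 37 members, and for 16.5% of all genes. The control arrays were far apart for these genes. Control replicate 1 was above control replicate 2 for 33 of 37 members, with a median gap of 0.26, while the median size of the gap over all genes was 0.13. In the other 8 groups the median size of the gap over the members was between 0.06 and 0.11. Proliferation genes split the same way in the control (mean levels of 10.24 and 9.81) and differed as far in the Ezh2-null pair (10.38 and 9.90), where the members went the other way, with 9 of 37 higher in replicate 1. The part of this in the comparisons was not tested. Without control replicate 1, Nop14 (0.48, adjusted p = 0.0478) and Nop58 (0.51, adjusted p = 0.046) were called higher in the Ezh2-null cells.

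**Figure D4:**
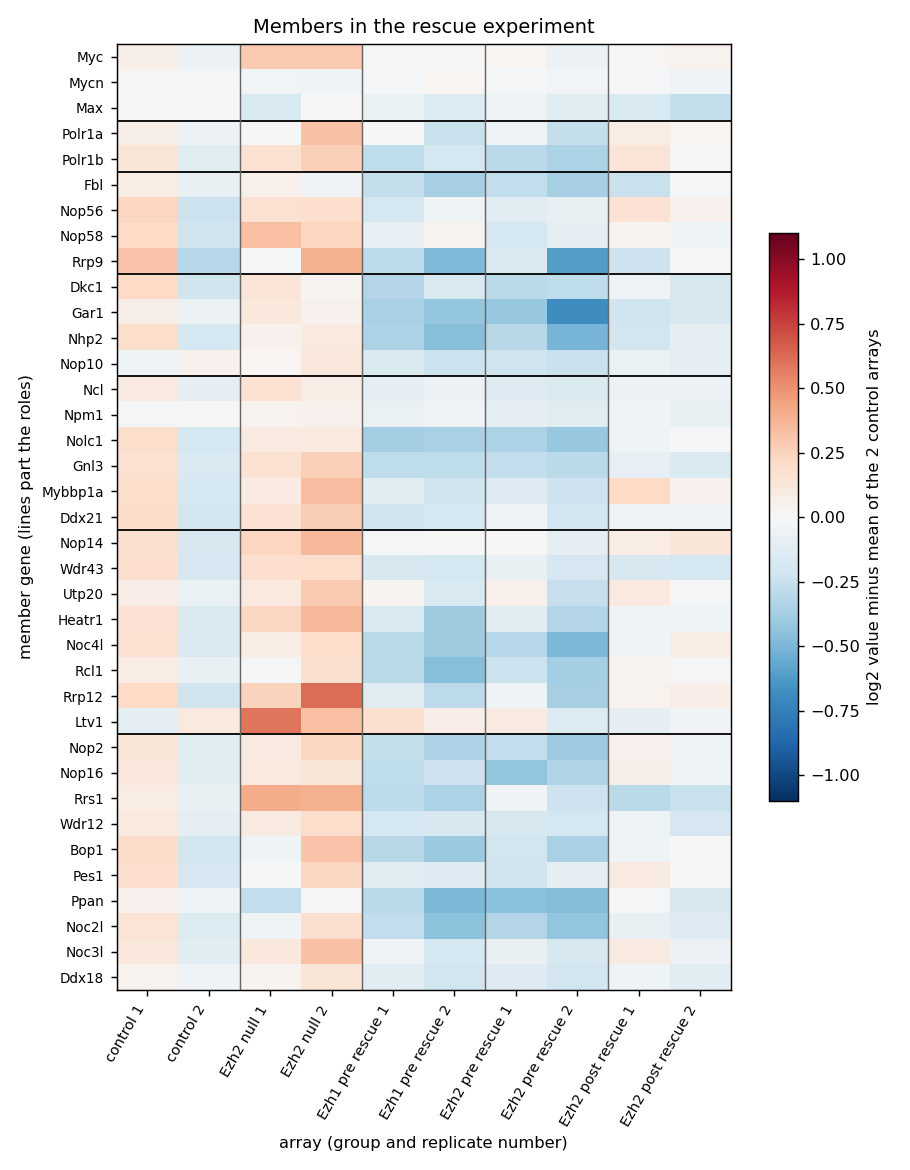
Log2 value of each of the 37 members in each of the 10 rescue experiment arrays, minus the mean of the 2 control arrays (colour scale), with genes in rows grouped by role and arrays in columns. The 2 control columns differ for most rows, the Ezh2-null columns lean to higher values, and both predeletion rescue pairs lean to lower values, with medians of -0.20 and -0.18.

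The members with the smallest p between Ezh2-null and control arrays were Rrs1, Ltv1 and Myc. Rrs1, a factor that loads the 5S particle onto the large subunit, read 7.40 and 7.23 in the control, 7.72 and 7.71 in the Ezh2-null arrays, 7.03 and 6.97 in the Ezh1 predeletion rescue, 7.28 and 7.09 in the Ezh2 predeletion rescue, and 7.02 and 7.07 in the post-deletion rescue. Both Ezh2-null arrays were above all other arrays, by 0.40 ± 0.088 over the control (adjusted p = 0.0701, limma). Myc read 11.19 and 11.06 in the control, 11.41 and 11.41 in the Ezh2-null arrays, 11.10 and 11.12 in the Ezh1 predeletion rescue, 11.15 and 11.06 in the Ezh2 predeletion rescue, and 11.14 and 11.16 in the post-deletion rescue. The Ezh2-null arrays again were the highest, by 0.28 ± 0.079 over the control (interval 0.10 to 0.46, adjusted p = 0.139), and the other 8 arrays spanned 11.06 to 11.19. Ltv1, a factor of late small subunit assembly, read 8.53 and 8.75 in the control, 9.23 and 8.97 in the Ezh2-null arrays, 8.82 and 8.71 in the Ezh1 predeletion rescue, 8.74 and 8.49 in the Ezh2 predeletion rescue, and 8.53 and 8.60 in the post-deletion rescue. It was 0.46 ± 0.128 above the control in the Ezh2-null cells (adjusted p = 0.134). None of the 3 passed the test.

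None of the members with the largest rise at day 32 passed the test here, and their arrays overlapped for some and not for others. Rrp9 read 9.53 and 8.90 in the control against 9.19 and 9.61 in the Ezh2-null arrays, so that the groups overlapped, and its change was 0.18 ± 0.236. Both Ezh2-null arrays of Rrp12 lay above the control, at 7.95 and 8.31 against 7.91 and 7.48 (0.44 ± 0.175, adjusted p = 0.284). Utp20 (9.52 and 9.70 against 9.48 and 9.34) and Heatr1 (9.46 and 9.59 against 9.39 and 9.08) did not overlap either, with differences of 0.20 and 0.29 (adjusted p = 0.483 and 0.288). The arrays of Mybbp1a and Bop1 overlapped. Mybbp1a read 10.41 and 10.03 against 10.31 and 10.56 (0.22 ± 0.136), and Bop1 10.02 and 9.61 against 9.77 and 10.13 (0.14 ± 0.161). Polr1b read 10.65 and 10.39 against 10.69 and 10.78, without overlap, with a difference of 0.21 ± 0.104 and an interval of -0.03 to 0.45. Max read between 10.03 and 10.29 and Mycn between 4.63 and 4.69 in all 10 arrays.

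In the post-deletion rescue the members lay near the control. With 0 of 37 called in either direction (limma, 2 with an unadjusted p under 0.05), where 0.510% of all genes were higher and 0.197% lower, the median difference from the control was -0.04 against -0.012 for all genes. The 3 smallest p were those of Rrs1 (-0.27), Max (-0.22) and Gar1 (-0.20), with adjusted p of 0.335, 0.489 and 0.592. Gar1 read 9.38 and 9.25 in the control and 9.10 and 9.14 in the post-deletion rescue. The intervals rest on the spread over all 10 arrays. They ran from -0.16 to 0.21 for Myc and, among the wider ones, from -0.34 to 0.47 for Rrp12. The comparison therefore does not show that the levels were equal.

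Set against the Ezh2-null cells, the post-deletion rescue had 1 of 37 members lower and 0 higher, where 0.409% of all genes were lower and 0.191% higher, and 8 had an unadjusted p under 0.05. The 1 was Rrs1, which was lower by 0.67 ± 0.088 on the log2 scale (0.627-fold, adjusted p = 0.0261, limma). The call was lost when any 1 of 7 arrays was left out, namely Ezh2-null replicate 2 or any array of the 3 rescue lines. The median of the members was -0.17 against 0.021 for all genes, and both post-deletion arrays lay below both Ezh2-null arrays for 25 of 37 members and for 20.4% of all genes. Ltv1 differed by -0.54 (adjusted p = 0.116), Myc by -0.26 (adjusted p = 0.2) and Nop58 by -0.30 (adjusted p = 0.379), and none of these passed. Mxd4, the antagonist that fell in the time course, read 10.37 and 10.72 in the control, 9.71 and 8.58 in the Ezh2-null arrays and 9.97 and 10.12 in the post-deletion rescue. The Ezh2-null arrays were far apart but both were below the others, and neither the difference from the control nor that from the rescue passed the test (adjusted p = 0.0995 and 0.305).

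Both predeletion rescue lines leaned below the control. The Ezh1 predeletion rescue had 0 of 37 members called (limma, 14 with an unadjusted p under 0.05) and a median of -0.20 against 0.00081 for all genes, where 0.0106% of all genes were higher and 0% lower. The Ezh2 predeletion rescue had 0 called (13 with an unadjusted p under 0.05) and a median of -0.18 against 0.006, where 0% of all genes were called in either direction. Both arrays lay below both control arrays for 20 of 37 members with Ezh1 and 19 with Ezh2, and for 20.4% and 20.1% of all genes, and both comparisons share the control arrays. Gar1 read 8.96 and 8.89 with Ezh1 and 8.90 and 8.63 with Ezh2 against 9.38 and 9.25 in the control, a difference of -0.39 ± 0.092 and of -0.55 ± 0.092 (adjusted p = 0.272 and 0.23). Nolc1 read 10.22 and 10.24 with Ezh1 and 10.25 and 10.18 with Ezh2 against 10.79 and 10.40, and it alone was called in both lines without control replicate 2 (adjusted p = 0.0311 and 0.0292). Proliferation genes had a median of -0.28 and -0.29 in these lines, with mean levels of 9.71 and 9.78, and 9.70 and 9.72, against 10.24 and 9.81 in the control, and their part in the lower values was not tested.

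Last, the change from control to Ezh2-null cells was set against the change from vehicle to day 32 as a difference of differences over all 18 arrays. The experiments had been normalized apart, and the rescue values had a narrower spread. For 9 of 37 members the Ezh2-null change was the smaller one and for 0 the larger one (limma, adjusted p under 0.05), where 5.64% of all genes were lower by this measure and 2.48% higher. The median was -0.35 against -0.024 for all genes. The 9 were Polr1b, Dkc1, Nhp2, Nolc1, Mybbp1a, Utp20, Noc4l, Nop2 and Ppan. Myc leaned the other way, with 0.28 ± 0.112 (adjusted p = 0.155). With all 18 arrays brought to the same distribution, 1 member was lower and 3.06% of all genes were lower. Over the arrays left out in turn the count ran from 1, without vehicle replicate 1 or Ezh2-null replicate 1, to 19, without control replicate 2. It was 2 without control replicate 1, 16 without Ezh2-null replicate 2, 4 without vehicle replicate 2, 2 without either day 32 array and 5 without either day 18 array. Of the proliferation genes, 14 of 21 were lower and 0 higher by the same measure, with a median of -0.75, and their part in the result for the members was not tested.

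**Figure D5:**
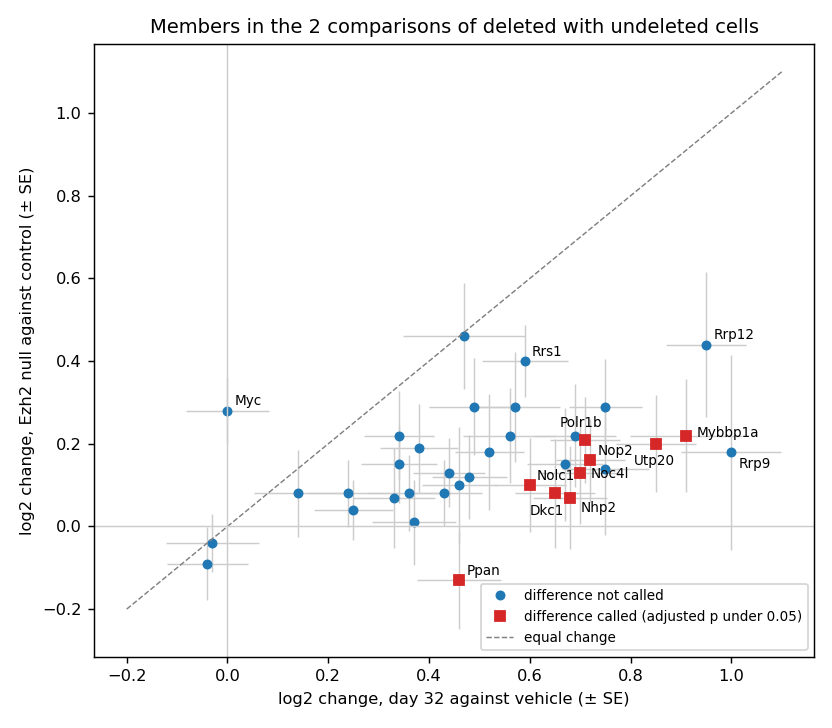
Log2 change of each member from vehicle to day 32 (horizontal axis) and from control to Ezh2-null cells (vertical axis), with standard errors as bars and the line of equal change dashed; red squares are the 9 members whose 2 changes differed. Most members lie below the line, whereas Myc, at 0.00 and 0.28, lies above it.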

How the data were processed

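Expression in clone C2 iMEFs was read on 18 Affymetrix Mouse Gene ST arrays. RMA, run by the authors in oligo, an R package, gave the deposited log2 intensities. Their methods also describe a batch difference between first and second replicates of the rescue experiment that was removed with limma. It is not stated whether this correction is in the deposited values, and for the arrays no tool versions or genome build are given in the sources used here. Levels were taken within an experiment only.

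Of 28440 probe sets, 21217 carried 1 gene symbol, 1881 several and 5342 none in the platform annotation, and 21184 were matched to RefSeq by gene ID with 0 symbols changed. Each gene was read by its brightest probe set on average, which left 18820 genes and 37 of the 38 members. The fits covered all 18820 genes and used lmFit and eBayes of limma 3.58.1 under R 4.3.3 (two-sided tests, Benjamini-Hochberg over all genes, calls at adjusted p under 0.05 at any fold). The time course fit used its 8 arrays with 4 residual degrees of freedom, and the rescue fit used its 10 arrays with the replicate number as a block, after the methods, also with 4. Errors are standard errors of the fit. Only 2 arrays in each group limit the precision. No 2 arrays were identical. The fits were also run on simulated data with planted changes and independent noise, without batches. Such data do not test the calls made here from 2 arrays a group. The methods' own rank-based test was not run.

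Alternatives were the block left out or added, quantile normalization, median centring, a filter on the lowest 30% of genes, the mean of a gene's probe sets, a trended robust prior and each array left out in turn. A change of probe set for members with several and the leaving out of arrays in the difference of differences were added after seeing the data.

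The members and gene lists were chosen with earlier results of these data known, so counts over them are descriptions. Values in every array are given for Myc, Mycn, Max, Polr1a and Polr1b, for the members with the largest and smallest change at day 32 in each other role, and for the 3 members with the smallest p between Ezh2-null or post-deletion rescue and control arrays. From each other list the 3 genes with the smallest adjusted p at day 32 are named. Mxd3 in the time course, Ezh1 and Nolc1 in the rescue arrays and other members named by their changes were added after their values were seen. Promoter windows and coordinates are from RefSeq, GRCm38.p6.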

Additional observations from a re-analysis of the deposited data

Results flagged for a closer look

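For 9 members the change from control to Ezh2-null cells differed from the change from vehicle to day 32 by the test of that difference (limma, all 18 arrays). The difference was -0.49 ± 0.123 for Polr1b (SE, adjusted p = 0.0268), -0.57 ± 0.159 for Dkc1 (adjusted p = 0.0443), -0.61 ± 0.148 for Nhp2 (adjusted p = 0.0239) and -0.50 ± 0.135 for Nolc1 (adjusted p = 0.0384). It was -0.69 ± 0.188 for Mybbp1a (adjusted p = 0.0406), -0.65 ± 0.144 for Utp20 (adjusted p = 0.0145) and -0.57 ± 0.150 for Noc4l (adjusted p = 0.0362). It was -0.56 ± 0.119 for Nop2 (adjusted p = 0.0115) and -0.59 ± 0.148 for Ppan (adjusted p = 0.0287). Each rose in the time course, and Ppan alone of the 9 had a value below 0 in the Ezh2-null cells (-0.13). The separate normalization of the experiments cannot be told apart from the experiments themselves.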

How the results depend on the processing

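The count of 33 members higher at day 32 lay between 28 and 33 under all alternatives, with 28 to 32 when 1 array was left out, and 0 members were lower in any. Median centring gave 3 members higher and 5 lower at day 5, and 11 higher and 1 lower at day 18. The trended robust prior gave 17 higher and 1 lower at day 5, 2 lower from day 5 to day 18, and 19 higher from day 18 to day 32. The shares of all genes called under that prior are not given here. These counts therefore do not show whether the members gained more calls than other genes. With 1 array left out, the count of members higher was 3 to 5 at day 5 and 14 to 23 at day 18, while the step from day 5 to day 18 gave 5 to 10 and the step from day 18 to day 32 gave 0 to 10. In the rescue experiment it ran from 0 to 2 higher in Ezh2-null against control, from 0 to 1 lower in each predeletion rescue line, and from 0 to 2 lower in the post-deletion rescue against Ezh2-null cells. For the difference of differences, quantile normalization gave 1 lower and leaving out 1 array 1 to 19. The sign of the day 32 change of Mycn turned with quantile normalization (0.01) and without vehicle replicate 1 or day 32 replicate 2 (0.05 in both; -0.12 to 0.05 over the arrays left out), and that of Max without vehicle replicate 2 (0.02) or day 32 replicate 2 (0.01; -0.1 to 0.02 over the arrays left out). Deviations of same-numbered arrays correlated at -0.07 to 0.05 over 6 pairs of groups in the time course, where the arrays share only a number. In the rescue experiment the methods treat first and second replicates as batches, and the correlations of -0.43 to 0.54 over 10 pairs do not bear on this if the values are already corrected. With a replicate block in the time course, 6, 21 and 31 members were higher at days 5, 18 and 32, 10 and 9 in the 2 later steps, and Nop10 and Npm1 were no longer called at day 32 (adjusted p = 0.0641 and 0.0542). Without the replicate block in the rescue experiment 1 member was lower in the post-deletion rescue against Ezh2-null cells, and 9 in the difference of differences. Where not stated otherwise the cause was not tested.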

Other observations

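Ezh1, which is no member of the list, read 9.17 and 9.05 with vehicle, 9.31 and 9.39 at day 5, 8.51 and 8.44 at day 18, then 8.14 and 8.10 at day 32, so that the later arrays lay below all earlier ones. In the rescue experiment Ezh1 read 9.50 and 9.82 in the control and 9.51 and 9.19 in the Ezh2-null arrays, which overlapped.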
